A study of Mus musculus with 35 samples.

Results

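The data compared bone marrow-derived macrophages (BMDMs) that had received lipopolysaccharide and dexamethasone together (LPS + Dex) with BMDMs that had received vehicle only, both from wild-type mice, and asked which transcripts still differed from resting cells when the inflammatory stimulus and the glucocorticoid were both present. All libraries of the 2 groups were taken by their labels: 3 LPS + Dex and 3 vehicle libraries, 6 of the 35 samples given for the series. For LPS + Dex replicate 1 the title reads WT1_LDe and the column header WT1L_De, and the title was followed. Bone marrow had been grown in medium with L929-conditioned supernatant, the source of the growth factor that turns marrow cells into macrophages. The differentiated cells were then exposed for 24 h to DMSO (vehicle), to 100 nM dexamethasone (Dex), to 100 ng/ml LPS, or to LPS and Dex at those same doses. The study's methods give a C57BL/6 background for the mutant lines they describe, and they do not describe an AMPKα1-/- line. The wild-type LPS group (2 libraries, with no replicate 1 among the samples given) and Dex group (3 libraries) entered the same fit and are given as levels beside the comparison. The corresponding 3 LPS + Dex and 3 vehicle libraries labelled AMPKα1-/- were used to look at the same comparison in other samples. The labels give neither age nor sex, nor what a replicate number stands for. The study's methods count cultures of individual mice of mixed sex as replicates, and p-values measure the spread between these libraries.

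LPS, a component of the outer membrane of Gram-negative bacteria, is sensed by macrophages through TLR4 with its co-receptor CD14 and turns on genes of NF-κB, AP-1 and, through secreted interferon, of STAT and IRF factors. Dex is a synthetic ligand of the glucocorticoid receptor, a nuclear receptor that switches on genes of its own, such as those of feedback inhibitors and of the leucine zipper protein GILZ, and restrains many genes that NF-κB and AP-1 drive. In macrophages glucocorticoids are also known for promoting the uptake of dead cells and for cooperating with inflammatory signals at some acute-phase genes.

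The sequenced depth, recovered from the smallest steps between FPKM values (fragments scaled to the length of the transcript and the size of the library), lay between 16805391 and 19973568 fragments in the vehicle libraries and between 18408669 and 28176237 in the LPS + Dex libraries. Over the 11471 genes with a mean of at least 1 FPKM in the 11 wild-type libraries, pairs of vehicle libraries correlated with r between 0.983 and 0.993 and pairs of LPS + Dex libraries with r between 0.967 and 0.979 across genes on the log2(FPKM + 1) scale, whereas pairs of 1 library from each group had r between 0.849 and 0.881. These are descriptions across genes, which are not independent replicates. No 2 libraries held identical values. The Y-linked gene Eif2s3y was at 53.9 to 78.6 FPKM in the vehicle libraries and 49.6 to 62.2 FPKM in the LPS + Dex libraries. Each of these 6 libraries thus held RNA of male cells.

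LPS + Dex left the BMDMs far from the resting state. In a limma linear model of the 11 wild-type libraries, 5669 of the 11471 genes were called at a Benjamini-Hochberg adjusted p under 0.05 (49.4%), 1831 of them higher in LPS + Dex (16.0%) and 3838 lower (33.5%). At least 2-fold differences were called for 809 higher genes (7.05%) and 1499 lower genes (13.1%). The 3 LPS + Dex libraries lay entirely above the 3 vehicle libraries for 2096 genes (18.3%) and entirely below them for 4221 (36.8%). All differences are given as LPS + Dex minus vehicle on the log2(FPKM + 1) scale, which understates the change of genes near 0. The median difference over all genes was -0.223, and it was -0.178 after rescaling without Saa3 and -0.0757 after rescaling without the 12 most abundant genes, so lists of genes are described beside that median. Counts within a list are over its members that passed the filter at 1 FPKM, and up to 12 listed genes per list did not. A member near 0 with vehicle passes only through groups in which it is high, which makes a higher call likely. The counts of every list are to be read beside the 16.0% higher and 33.5% lower over all genes. With each library centred on its median the calls split nearly evenly, 2691 higher and 2631 lower, and higher genes made up 50.6% of the calls against 32.3% without centring. They made up 49.5% after quantile normalization, 46.0% after rescaling without the 12 most abundant genes, and 36.8% (1919 higher, 3292 lower) after rescaling without Saa3 alone.

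**Figure D1:**
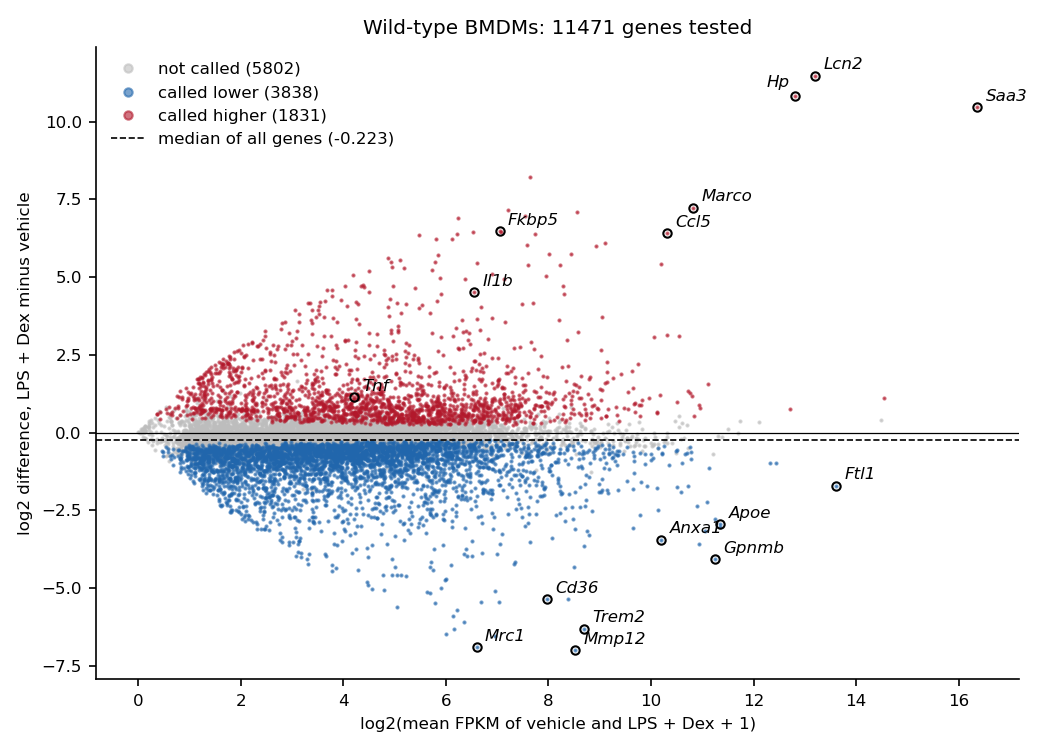
Each point is 1 of the 11471 genes tested in wild-type BMDMs. The x axis gives log2 of the mean FPKM of the vehicle and LPS + Dex groups plus 1, the y axis the log2 difference, LPS + Dex minus vehicle. Red genes were called higher (1831), blue genes lower (3838) and grey genes were not called. The dashed line is the median of all genes at -0.223, and Saa3, Lcn2 and Hp lie above a log2 difference of 10.

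The largest rises were those of secreted acute-phase and antibacterial proteins. Lcn2 encodes lipocalin-2, which binds bacterial siderophores and so withholds iron from bacteria (chromosome 2, 32384633 to 32388252, GRCm38). Its level was 2.29, 5.21 and 12.4 FPKM in vehicle replicates 1, 2 and 3 and 14828, 18873 and 22431 FPKM in LPS + Dex replicates 1, 2 and 3 (log2 difference 11.47, SE 0.46, adjusted p = 9.6e-09). Hp, the gene of haptoglobin, the plasma protein that captures free haemoglobin (chromosome 8, 109575128 to 109579172), stood at 4.21, 3.99 and 17.3 FPKM with vehicle and at 12453, 13518 and 17201 FPKM with LPS + Dex (log2 difference 10.83, SE 0.43, adjusted p = 9.1e-09). Saa3 encodes serum amyloid A3, an acute-phase apolipoprotein made by macrophages (chromosome 7, 46711998 to 46715700), and was measured at 58.8, 108 and 239.8 FPKM with vehicle and 125958, 153213 and 225316 FPKM with LPS + Dex (log2 difference 10.46, SE 0.56, adjusted p = 8.2e-08). For these 3 genes every LPS + Dex library lay far above the highest vehicle library, and vehicle replicate 3 had the highest resting level of each. Either agent alone gave less: the mean Saa3 level was 851 FPKM with Dex and 55512 FPKM with LPS, that of Lcn2 was 11.98 and 1339 FPKM, and that of Hp was 268 and 97.5 FPKM.

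**Figure D2:**
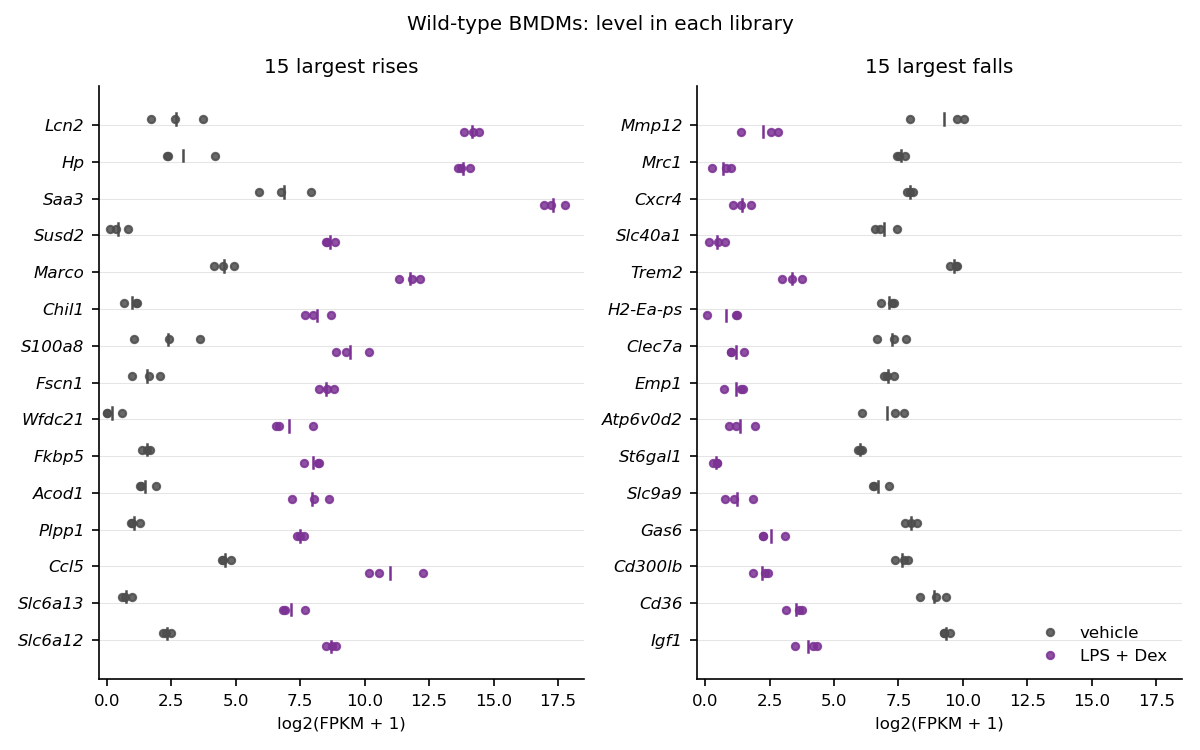
Level of the 15 genes with the largest rise (left) and the largest fall (right) among called genes whose libraries did not overlap. The x axis is log2(FPKM + 1), each point is 1 library (3 vehicle in grey, 3 LPS + Dex in purple) and the short bar is the group mean. All 30 genes are separated by a wide gap between the groups, and vehicle libraries spread most for Lcn2, Hp, Saa3, S100a8 and Mmp12.

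These genes took a large part of the FPKM sum. That sum is scaled to length, so a short transcript counts for more in it than among the sequenced fragments. In LPS + Dex replicates 1, 2 and 3 Saa3 alone made up 16.0, 18.1 and 24.0% of all FPKM, a mean of 19.3% ± 4.14 (SD, n = 3). It made up no more than 0.0344% of the FPKM sum of any vehicle library. The 12 genes most abundant under LPS + Dex, chosen for that level, together held a mean of 34.0% ± 4.92 (SD, n = 3) of the sum, against 11.2% ± 0.728 (SD, n = 3) with vehicle. Fth1, the ferritin heavy chain, rose from a mean of 15131 to 32771 FPKM, while Ftl1, the ferritin light chain, fell from 18971 to 5892 FPKM; both genes have near-identical processed copies in the genome, so their counts are uncertain. Lyz2, lysozyme, a standard macrophage gene, was at 17922, 23014 and 18029.7 FPKM with vehicle and 24420.2, 24473 and 29195 FPKM with LPS + Dex and was not called (it was called lower after quantile normalization, at -1.396, and higher after rescaling without Saa3, at 0.462, or without the 12 most abundant genes, at 0.581). Ctsd, an aspartic protease of the lysosome, and Eef1a1, a translation elongation factor, fell by 0.98 and 0.98 on the log2 scale. The cytoskeletal genes Tmsb4x (log2 difference 0.75, SE 0.18, adjusted p = 0.0045) and Actb (log2 difference 0.38, SE 0.21, adjusted p = 0.17) and the mitochondrial mt-Co1 (log2 difference 0.33, SE 0.18, adjusted p = 0.14) complete the 12 with Lcn2, Hp and the scavenger receptor gene Marco. Fth1 and Tmsb4x lost their calls without a filter on low values, and Tmsb4x also after quantile normalization (0.37), which called Actb (0.46) and mt-Co1 (0.44) higher. Actb (0.55) and mt-Co1 (0.51) were also called higher after rescaling without the 12 most abundant genes, and mt-Co1 with libraries centred (0.56).

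**Figure D3:**
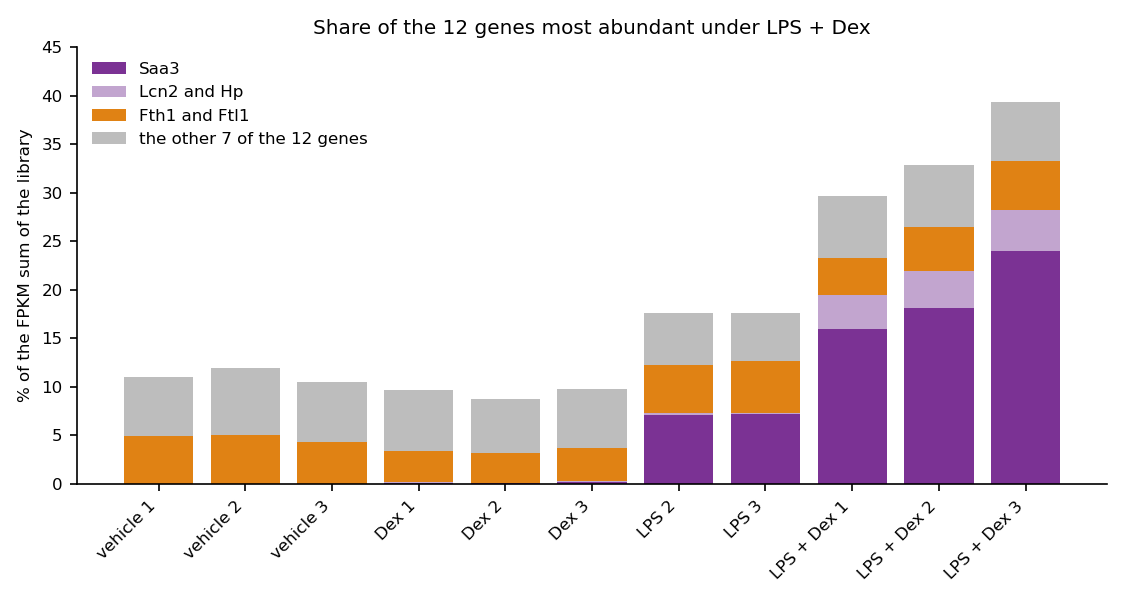
Percent of each library's FPKM sum held by the 12 genes most abundant under LPS + Dex, stacked as Saa3, Lcn2 with Hp, the ferritin genes Fth1 with Ftl1, and the other 7, in the 11 wild-type libraries. The 3 LPS + Dex libraries reach 29.7% to 39.3%, of which Saa3 holds 16.0% to 24.0%, and the 3 vehicle libraries reach 10.54% to 11.96%.

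To show the sequence in front of genes at the top of either ranking, the stretch from 250 to 51 bases before the start was taken from the RefSeq promoter table (GRCm38.p6) for Saa3 and Lcn2, for Fkbp5, the largest rise among known glucocorticoid-induced genes, and for Mrc1, a large fall. The start is that of RefSeq, and the Lcn2 and Fkbp5 stretches lie within the ranges that GENCODE gives these genes. Capitals mark matches, on either strand, to a C/EBP-type motif (TTGCNNAA) or an NF-κB-type motif (GGNNTTNCC).
Saa3, chr7:46715727-46715926, minus strand: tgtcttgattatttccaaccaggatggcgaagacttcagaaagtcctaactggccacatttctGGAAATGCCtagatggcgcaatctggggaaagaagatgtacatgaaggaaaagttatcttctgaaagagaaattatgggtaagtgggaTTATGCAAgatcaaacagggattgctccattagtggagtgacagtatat
Lcn2, chr2:32387790-32387989, minus strand: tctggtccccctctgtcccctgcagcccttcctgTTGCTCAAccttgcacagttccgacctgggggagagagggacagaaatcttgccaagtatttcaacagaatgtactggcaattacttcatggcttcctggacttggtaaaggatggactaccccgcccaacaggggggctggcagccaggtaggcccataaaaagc
Fkbp5, chr17:28486200-28486399, minus strand: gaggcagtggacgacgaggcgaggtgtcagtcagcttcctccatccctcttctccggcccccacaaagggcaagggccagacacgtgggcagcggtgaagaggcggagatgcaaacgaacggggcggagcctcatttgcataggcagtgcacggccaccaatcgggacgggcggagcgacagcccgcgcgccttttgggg
Mrc1, chr2:14229164-14229363, plus strand: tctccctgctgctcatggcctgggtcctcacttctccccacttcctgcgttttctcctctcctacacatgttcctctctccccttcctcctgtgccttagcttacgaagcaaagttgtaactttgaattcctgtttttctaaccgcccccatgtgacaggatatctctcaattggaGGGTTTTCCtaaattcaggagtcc
The Saa3 stretch held 1 match to each motif, the Lcn2 stretch 1 C/EBP-type match, the Mrc1 stretch 1 NF-κB-type match, and the Fkbp5 stretch none. Neither a STAT-type (TTCNNNGAA), an AP-1-type (TGANTCA) nor a glucocorticoid half-site motif (AGAACA) was found in these 4 windows. Of all 32851 RefSeq promoters, 8.11% hold the C/EBP-type and 10.9% the NF-κB-type motif in the same window. Of the 15 largest rises 10 genes had an entry, and 6 of their 16 promoters held the NF-κB-type and 2 the C/EBP-type motif. Among the 15 largest falls, 12 genes had an entry, and 2 of their 17 promoters held the NF-κB-type and 1 the C/EBP-type motif. A match is a run of letters and was not tested as a binding site.

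Of the 22 acute-phase genes listed, 10 passed the filter and all 10 were called higher, with a median log2 difference of 5.06 beside -0.223 for all genes. The other 12 were below 1 FPKM, and a gene that is near 0 with vehicle passes the filter only through the groups in which it is high, so this count describes the genes measured and supports nothing further. Serpina3g, a serine protease inhibitor, was at 0.277, 0 and 0.255 FPKM with vehicle and 69.1, 46.1 and 54.9 FPKM with LPS + Dex (log2 difference 5.60, SE 0.21, adjusted p = 6.2e-09). Mt2, a metallothionein that binds zinc and copper and is induced by glucocorticoids, rose from 50.5, 55.5 and 40.4 FPKM to 1884, 1462 and 3523 FPKM (log2 difference 5.43, SE 0.27, adjusted p = 5.3e-08). Neither gene had overlapping libraries.

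Antimicrobial and alarmin genes followed, with 10 of the 15 tested called higher and none lower, beside 16.0% of all genes higher and 33.5% lower. Their median difference was 3.95, and 5 listed genes were below the filter. As in the acute-phase list, members near 0 with vehicle could pass the filter only through the groups in which they were high. Marco, a receptor that binds unopsonized bacteria, went from 21.7, 29.4 and 16.9 to 2542, 3665 and 4528 FPKM (log2 difference 7.23, SE 0.28, adjusted p = 7.9e-09). Chil1, which encodes a secreted chitinase-like protein, went from 1.23, 0.594 and 1.18 to 253, 207 and 419 FPKM (log2 difference 7.15, SE 0.24, adjusted p = 3.1e-09). S100a8, a subunit of the alarmin calprotectin, rose from 11.3, 1.09 and 4.27 to 617, 478 and 1147 FPKM (log2 difference 7.09, SE 0.61, adjusted p = 3.1e-06). Its usual partner S100a9, named after its values were seen, did not follow: it was at 11.1, 0.231 and 1.36 FPKM with vehicle and 1.03, 0.211 and 0.338 FPKM with LPS + Dex, with overlapping libraries and no call (log2 difference -1.14, SE 0.65, adjusted p = 0.17), although without vehicle replicate 2 it was called lower (-1.84). Of the other genes among the 15 largest rises, Wfdc21, a small secreted whey acidic protein, was listed at 0 in 2 of the 3 vehicle libraries and at 103, 94.1 and 252 FPKM with LPS + Dex. Susd2, a membrane protein with a sushi domain, stood at 0.0884, 0.271 and 0.782 FPKM with vehicle and 365, 375 and 458 FPKM with LPS + Dex. Fscn1, the actin-bundling protein fascin, Plpp1, a phospholipid phosphatase, and the neighbouring transporter genes Slc6a13 and Slc6a12, which carry GABA and betaine, rose by 6.96, 6.44, 6.40 and 6.38. All of these had their 3 LPS + Dex libraries above every vehicle library.

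Genes known to be induced by glucocorticoids were mostly above the resting level: 14 of the 24 tested were called higher and 4 lower, with a median difference of 1.35. Fkbp5, a co-chaperone that dampens the glucocorticoid receptor, rose from 1.60, 1.91 and 2.23 FPKM to 287, 297 and 198 FPKM (log2 difference 6.47, SE 0.16, adjusted p = 5e-10). Dusp1, the phosphatase that switches off p38 and JNK, rose from 22.3, 15.8 and 16.6 to 375, 346 and 294 FPKM (log2 difference 4.15, SE 0.16, adjusted p = 6.2e-09). Tsc22d3, the gene of GILZ, rose from 54.3, 51.7 and 54.6 to 248, 257 and 210.0 FPKM (log2 difference 2.13, SE 0.12, adjusted p = 1.3e-07). In none of these did a library of one group reach the other. The formyl peptide receptor genes Fpr2 (log2 difference 5.73, SE 0.19, adjusted p = 2.7e-09) and Fpr1 (log2 difference 4.99, SE 0.30, adjusted p = 2.2e-07) rose as well, and both stood higher with LPS alone (547 and 197 FPKM) than with Dex alone (3.505 and 1.07 FPKM). Ddit4, an inhibitor of mTORC1, was at a mean of 62.0 FPKM, above the 2.28 FPKM of vehicle and below the 521 FPKM of Dex alone.

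The 4 genes of that list that fell were Anxa1, Rgs2, Tmem37 and Sesn1. Anxa1 encodes annexin A1, a mediator of the resolving action of glucocorticoids, and was at 2281, 1526 and 2656 FPKM with vehicle and 191, 220.5 and 169 FPKM with LPS + Dex (log2 difference -3.44, SE 0.21, adjusted p = 1.9e-07). Rgs2, which limits signalling by G proteins, fell from 244, 223 and 235 to 66.7, 61.7 and 41.0 FPKM (log2 difference -2.06, SE 0.17, adjusted p = 2.7e-06). Sesn1, a stress-induced regulator of mTORC1, and Tmem37 fell by 1.79 and 2.06 on the log2 scale. Under Dex alone the means of Anxa1, Rgs2 and Sesn1, 846, 95.4 and 54.5 FPKM, were also below those of vehicle, 2154, 234 and 108 FPKM, while that of Tmem37 was 102 FPKM against 39.1 FPKM with vehicle. Cd163, the haemoglobin scavenger receptor, Glul, glutamine synthetase, and Klf9, a Krüppel-like factor, all with higher means under Dex alone (26.7, 2419.9 and 35.9 FPKM), were at 3.65, 837 and 3.77 FPKM with LPS + Dex and 4.42, 689 and 3.12 FPKM with vehicle, and were not called, except that Glul was called higher (0.33 to 0.50) under each of the 4 other scalings and without LPS + Dex replicate 3 (0.37). Nr3c1, the glucocorticoid receptor gene itself, was at 42.5, 37.9 and 46.9 FPKM with vehicle and 44.0, 30.0 and 21.8 FPKM with LPS + Dex and was not called (log2 difference -0.45, SE 0.24, adjusted p = 0.15). Without LPS + Dex replicate 1 it was called lower, at -0.70.

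Of the 18 cytokine genes tested, 11 were called higher, 2 lower and 5 not at all, beside 16.0% of all genes higher and 33.5% lower. Il6, Il12a and Csf3, near 0 with vehicle, passed the filter only through groups in which they were high. Their higher calls were thus close to fixed, and the count only describes the genes measured. Il1b, which encodes the pro-form of interleukin-1β, was at 3.77, 5.67 and 5.45 FPKM with vehicle and 211, 38.2 and 292 FPKM with LPS + Dex (log2 difference 4.51, SE 0.60, adjusted p = 8.8e-05), with a mean of 15293 FPKM under LPS alone. Replicate 2 of LPS + Dex had the lowest level, still above every vehicle library. Il12a, the p35 subunit of interleukin-12, was at 0, 0.0542 and 0.0456 and 8.02, 3.66 and 15.8 FPKM (log2 difference 3.11, SE 0.35, adjusted p = 2.4e-05), and Il6 at 0.0426, 0.0933 and 0.157 and 3.59, 1.32 and 6.84 FPKM (log2 difference 1.995, SE 0.33, adjusted p = 0.00046). Both stayed at low levels beside LPS alone, where their means were 320.2 and 507 FPKM. Tnf, the gene of tumour necrosis factor, rose from 11.2, 7.75 and 12.5 to 20.8, 22.0 and 30.3 FPKM (log2 difference 1.15, SE 0.23, adjusted p = 0.0014). Csf3, which encodes the granulocyte growth factor G-CSF, was listed at 0 in every vehicle library and at 4.52, 1.85 and 11.7 FPKM with LPS + Dex, with a mean of 7.85 FPKM under LPS alone. Il15, a growth factor of natural killer and memory T cells, fell from 12.5, 14.0 and 11.3 to 1.47, 0.911 and 0.777 FPKM (log2 difference -2.74, SE 0.15, adjusted p = 8.2e-08), and Osm fell by 0.70 (not called after quantile normalization, at -0.41).

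Of the 22 chemokine genes tested, 8 were called higher, 3 lower and 11 not at all (5 lower without LPS + Dex replicate 3). Ccl5 (RANTES), which attracts T cells and monocytes, rose from 26.9, 21.4 and 20.9 to 1495, 1145 and 4902 FPKM (log2 difference 6.41, SE 0.59, adjusted p = 5.4e-06). Cxcl13, the B cell chemoattractant, rose from 0.189, 0.466 and 0.218 to 125, 159.8 and 43.9 FPKM (log2 difference 6.24, SE 0.41, adjusted p = 3.4e-07), while its means under Dex or LPS alone were 0.0958 and 2.56 FPKM. The neutrophil attractants Cxcl2 and Cxcl1 rose by 2.80 and 2.02, and Ccl3, Ccl17 and Ccl22 by 1.97, 2.49 and 1.25. Ccl22 lost its call without vehicle replicate 1 (1.13) and in the fit of only the 6 LPS + Dex and vehicle libraries. Ccl2, the main attractant of monocytes, fell from 5.24, 3.55 and 5.35 to 1.41, 0.398 and 2.10 FPKM (log2 difference -1.37, SE 0.30, adjusted p = 0.003), and Ccl6 from 173, 91.3 and 216 to 10.98, 5.76 and 10.3 FPKM (log2 difference -3.96, SE 0.55, adjusted p = 0.00013). Cxcl10 was at 1.26, 1.04 and 1.60 FPKM with vehicle and 0.650, 0.260 and 2.40 FPKM with LPS + Dex, overlapped and was not called, against a mean of 1057 FPKM under LPS alone. Without LPS + Dex replicate 3 it was called lower, at -0.67, and without LPS + Dex replicate 2 its difference was 0.05.

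**Figure D4:**
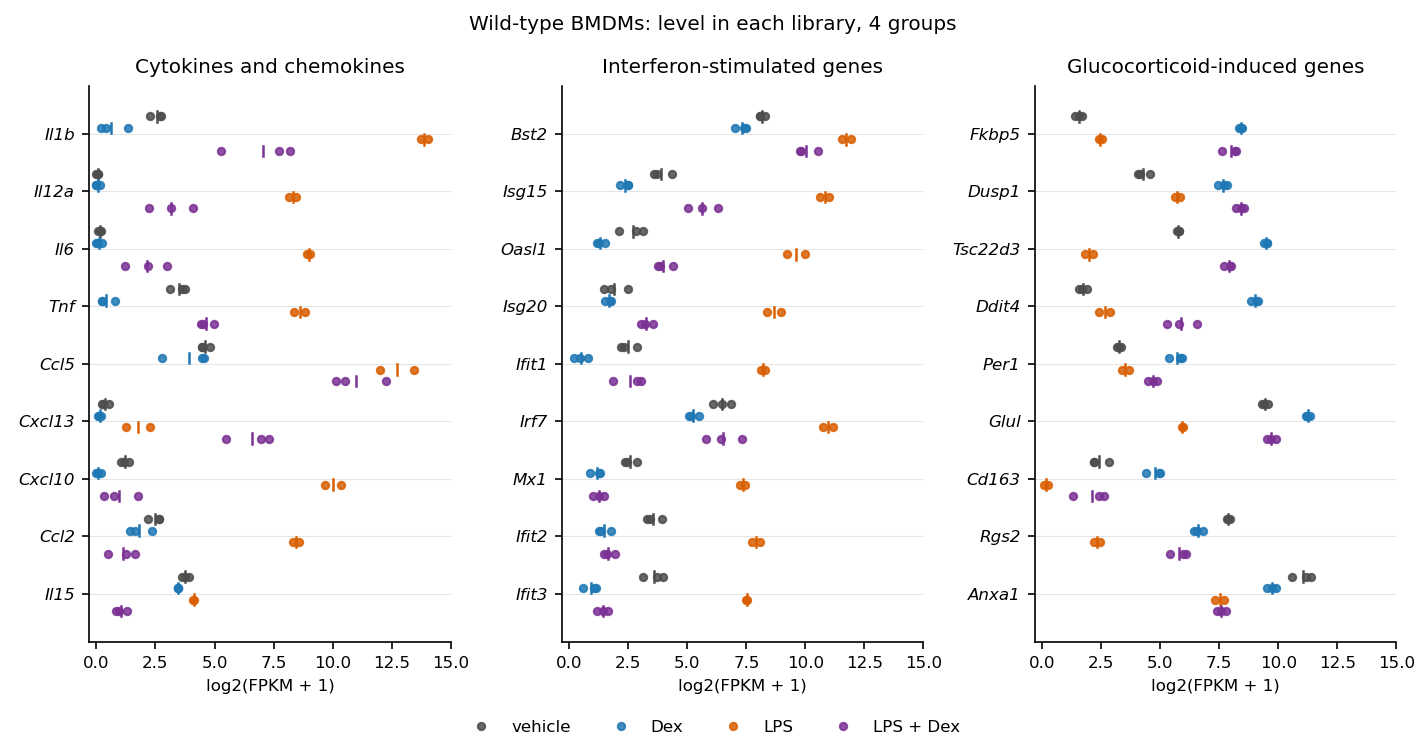
Level in each wild-type library of 9 cytokine and chemokine genes, 9 interferon-stimulated genes and 9 glucocorticoid-induced genes. The x axis is log2(FPKM + 1), points are libraries (3 vehicle, 3 Dex, 2 LPS, 3 LPS + Dex) and short bars are group means. Purple points (LPS + Dex) lie to the right of grey points (vehicle) for Il1b, Ccl5, Cxcl13 and Fkbp5, among them for Cxcl10, Irf7 and Cd163, and to their left for Il15, Ifit2, Ifit3 and Anxa1.

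Of 34 interferon-stimulated genes tested, 8 were called higher, 10 lower and 16 not at all, beside 16.0% of all genes higher and 33.5% lower, and the median difference was -0.175, close to that of all genes (0.05 with libraries centred). Bst2, tetherin, which holds budding virus at the cell surface, rose from 269, 315 and 269 to 896, 866 and 1498 FPKM (log2 difference 1.89, SE 0.22, adjusted p = 2.9e-05). Isg15, a ubiquitin-like modifier, rose from 11.01, 12.3 and 19.5 to 48.1, 31.5 and 76.7 FPKM (log2 difference 1.75, SE 0.29, adjusted p = 0.00047), and Oasl1, Isg20 and Dhx58 by 1.30, 1.36 and 0.90. Ifit3 and Ifit2, of the IFIT family whose proteins bind foreign RNA, were lower. Ifit3 fell from 7.70, 12.2 and 14.5 to 1.67, 1.25 and 2.10 FPKM (log2 difference -2.20, SE 0.23, adjusted p = 1.4e-05) and Ifit2 from 9.73, 8.80 and 14.1 to 2.77, 2.04 and 1.74 FPKM (log2 difference -1.89, SE 0.21, adjusted p = 2.4e-05). Oasl2, Mx1, Rsad2 (viperin) and Ifi44 fell by 1.66, 1.32, 1.08 and 1.12. Irf7, a transcription factor that amplifies the interferon response, was at a mean of 89.7 FPKM with vehicle, 98.8 FPKM with LPS + Dex and 2025 FPKM with LPS alone, and was not called. The guanylate-binding proteins Gbp6, Gbp5 and Gbp3 rose by 1.57, 1.45 and 1.14, and Gbp9 fell by 1.02, among 13 interferon-inducible GTPases of which 4 were higher and 2 lower.

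Several inhibitors of inflammatory signalling rose, but their lists were mixed. Among 18 genes of NF-κB subunits and their inhibitors, 11 were called higher and 2 lower (median 0.81). Tnfaip3, the ubiquitin-editing enzyme A20, rose from 13.8, 8.23 and 14.1 to 165, 109 and 124 FPKM (log2 difference 3.37, SE 0.20, adjusted p = 1.6e-07). Nfkbia, the gene of IκBα, Traf1 and Irak3, the kinase-like inhibitor IRAK-M, rose by 2.92, 3.12 and 2.98. Socs3, which blocks the receptor of interleukin-6, rose from 4.47, 3.04 and 7.54 to 372, 384 and 374 FPKM (log2 difference 6.04, SE 0.25, adjusted p = 1.2e-08), and the LPS + Dex libraries lay close together. Socs1 and Jak2 rose by 4.23 and 2.47, and 5 of 15 genes of JAK-STAT signalling and its suppressors were higher and 3 lower. Il1rn, the antagonist of the interleukin-1 receptor, rose from 16.8, 17.6 and 23.1 to 88.7, 52.7 and 68.4 FPKM (log2 difference 1.79, SE 0.24, adjusted p = 9.7e-05). It was the 1 higher gene of the 9 tested among antagonists and the interleukin-10 family, while Il10rb, Tgfb1 and Il18bp fell by 1.38, 1.25 and 1.19.

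Of 22 genes of Toll-like receptors and their signalling, 6 were higher and 9 lower (7 lower with libraries centred), and their median difference was -0.31, beside -0.223 for all genes. Tlr2, the receptor of bacterial lipopeptides, rose from 26.0, 30.6 and 29.3 to 185, 146 and 183 FPKM (log2 difference 2.54, SE 0.13, adjusted p = 5e-08). Cd180, a homologue of TLR4, and its partner Ly86 fell by 2.65 and 2.14, and Tlr9, which senses bacterial DNA, by 1.96. The inflammasome genes Mefv (pyrin), Nlrp3 and Nlrc4 rose by 2.51, 0.99 and 0.92, and Ninj1, which ruptures the membrane of dying cells, fell by 0.85, with 5 of 13 genes higher and 3 lower (1 lower with libraries centred). Of 14 MAP kinase phosphatase and messenger decay genes, 5 were higher and 5 lower, beside 16.0% and 33.5% of all genes, with a median difference of -0.13. Dusp2, Pde4b and Zc3h12a (regnase-1) rose by 3.55, 3.23 and 1.54, and Zfp36l1 fell by 2.22.

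The genes listed for prostaglandin and nitric oxide synthesis, which include receptors and a transporter, showed 8 rises and 7 falls among 19 genes. Ptges, the inducible prostaglandin E synthase, rose from 3.58, 2.27 and 3.71 to 209, 114 and 246 FPKM (log2 difference 5.46, SE 0.27, adjusted p = 3.9e-08), whereas Hpgds, the synthase of prostaglandin D, fell from 106, 87.3 and 99.2 to 4.96, 6.30 and 2.69 FPKM (log2 difference -4.17, SE 0.23, adjusted p = 1e-07). Ptgs2 (COX-2), which feeds both, rose only to 3.54, 1.69 and 3.34 FPKM from 0.339, 0.371 and 0.624 FPKM (log2 difference 1.38, SE 0.20, adjusted p = 0.00016), while LPS alone gave a mean of 1193 FPKM, and Ptgs1 (COX-1) fell by 2.12. The arginine transporter Slc7a2 and argininosuccinate synthase Ass1 rose by 4.94 and 1.71. Nos2, the inducible nitric oxide synthase, was at 0.0130, 0.0142 and 0.0597 FPKM with vehicle and 0.195, 0.130 and 1.11 FPKM with LPS + Dex; the libraries did not overlap but the difference was not called (log2 difference 0.46, SE 0.39, adjusted p = 0.35; with a pseudocount of 0.1 it was called, at 1.77), and LPS alone gave a mean of 84.7 FPKM.

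Mmp12, Mrc1 and Cxcr4 led the ranked falls. These are bulk samples, in which fewer cells of a type and less RNA per cell cannot be told apart. Mmp12, the macrophage elastase, was at 1058, 244 and 885 FPKM with vehicle and 4.89, 1.66 and 6.02 FPKM with LPS + Dex (log2 difference -7.00, SE 0.51, adjusted p = 8.3e-07). Replicate 2 was the lowest of its group on both sides, and the groups were far apart. Mrc1, the mannose receptor, fell from 175, 184 and 215 to 1.00, 0.744 and 0.211 FPKM (log2 difference -6.89, SE 0.18, adjusted p = 6.7e-10), and stood at means of 142 FPKM with Dex alone and 0.773 FPKM with LPS alone. Cxcr4, the receptor of the marrow chemokine CXCL12, fell from 263, 248 and 224 to 1.63, 2.45 and 1.10 FPKM (log2 difference -6.52, SE 0.17, adjusted p = 6.7e-10). Trem2, a lipid-sensing receptor of tissue macrophages, fell from 856, 869 and 729.9 to 6.99, 12.6 and 9.22 FPKM (log2 difference -6.30, SE 0.18, adjusted p = 8.6e-10). For Cxcr4 and Trem2 the means were 327 and 302 FPKM with Dex alone and 0.708 and 9.52 FPKM with LPS alone, so all 3 receptors were low in both groups that had received LPS. Clec7a, the β-glucan receptor dectin-1, and Igf1, insulin-like growth factor 1, fell by 6.08 and 5.34. Emp1, a membrane protein of the tetraspan type, St6gal1, a sialyltransferase, and Cd300lb, an activating receptor of myeloid cells, fell by 5.91, 5.60 and 5.44, and Slc9a9, an endosomal proton exchanger, had a difference of -5.47.

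By list, 10 of 14 interleukin-4-type activation genes were called lower and 1 higher (median -1.75), among them the transcription factor Egr2 (log2 difference -4.90, SE 0.29, adjusted p = 1.8e-07) and Plxdc2 (log2 difference -3.74, SE 0.27, adjusted p = 6.9e-07). Of 22 scavenger receptor and apoptotic cell clearance genes, 14 were lower and 1 higher (median -1.19). Gas6, the ligand that bridges dead cells to the TAM receptors, fell from 216, 298 and 251 to 3.78, 7.56 and 3.80 FPKM (log2 difference -5.45, SE 0.23, adjusted p = 1.6e-08). Cd36, a scavenger receptor for oxidized lipoprotein and fatty acids, fell from 655, 322 and 492 to 12.6, 11.4 and 7.92 FPKM (log2 difference -5.36, SE 0.23, adjusted p = 1.5e-08). Both genes had groups that were well apart. Cd5l and Mfge8, another bridging protein, fell by 3.22 and 2.62, whereas Mertk, the TAM receptor that glucocorticoids are known to raise, was at a mean of 54.7 FPKM against 37.8 FPKM with vehicle and 204 FPKM with Dex alone (log2 difference 0.50, SE 0.18, adjusted p = 0.039, with overlapping libraries, and without a call when any 1 of the 6 libraries other than LPS + Dex replicate 3 was left out). Chemokine and complement receptors C3ar1 and Ccr2 fell by 2.63 and 2.42, within a list of 9 receptors of which 4 were lower and 1 higher (4 and 3 with libraries centred). Among 15 complement genes, 4 were higher and 5 lower, beside 16.0% and 33.5% of all genes, and their median difference was -0.013. C3 and the decay-accelerating factor Cd55 rose by 2.65 and 4.15. Of 8 Fcγ receptor genes, 3 rose, led by Fcgr4 (2.34), and 3 fell, led by the Fc receptor-like gene Fcrls and Fcgr3 (by 2.66 and 2.57).

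All 20 macrophage identity genes were detected in all 6 libraries, 12 of them were called lower and 4 higher, and their FPKM summed to between 15511.5 and 16317.5 with vehicle and between 5709 and 7120.3 with LPS + Dex, with Lgals3 (galectin-3) the most abundant by mean with vehicle and Adgre1 with LPS + Dex. Of these, 3 were picked out after their values were seen: Spi1, the master factor PU.1, had a difference of 0.00 (SE 0.14), Csf1r, the growth factor receptor of macrophages, fell by 0.50 but was not called with libraries centred, and Adgre1 (F4/80) rose by 1.27. Gpnmb, a lysosomal glycoprotein, fell from 4448, 3955 and 5334 to 329, 288 and 208 FPKM (log2 difference -4.07, SE 0.18, adjusted p = 1.8e-08), and Lgals3 from 4778, 4520.2 and 4627 to 599, 629 and 490.3 FPKM (log2 difference -3.02, SE 0.13, adjusted p = 1.8e-08). Cebpb, a transcription factor of acute-phase genes, and Cd33, a sialic acid receptor, rose by 2.69 and 2.95.

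Markers of other cell types were mostly at or near 0. Of 15 neutrophil markers 9 were below 1 FPKM in all 6 libraries and Retnlg was at 0, and the list summed to 60.4 to 98.3 FPKM with vehicle and 69.2 to 79.6 FPKM with LPS + Dex. Most of the vehicle sum was Csf3r, the G-CSF receptor that monocytes also carry (53.4 to 76.0 FPKM, against 24.2 to 35.1 FPKM with LPS + Dex). Camp, the cathelicidin that neutrophil granules hold, rose from 1.36, 0.157 and 0.396 to 34.8, 32.9 and 52.1 FPKM (log2 difference 4.68, SE 0.26, adjusted p = 1.2e-07), while its mean under LPS alone was 123 FPKM. By mean, the most abundant mast cell marker with vehicle was Cpa3, at 0 with LPS + Dex, and the most abundant red cell marker with LPS + Dex was Alas2. All 8 mast cell and all 8 red cell markers were below 1 FPKM in the 6 libraries, with sums of at most 0.644 and 0.392 FPKM, and the red cell gene Hbb-bs was at 0. Among T and NK cell markers 10 of 12 were below 1 FPKM and Ncr1 and Gzma were at 0, and the sum went from 16.1 to 18.54 FPKM with vehicle to 2.42 to 5.06 FPKM with LPS + Dex, as Cd4 fell from a mean of 16.5 to 2.45 FPKM. Among B cell markers 6 of 8 were below 1 FPKM and Pax5 was at 0, and the sum was 68.3 to 75.1 FPKM with vehicle and 4.20 to 5.31 FPKM with LPS + Dex. Ighm, the immunoglobulin μ chain, held most of the vehicle sum and fell from 71.9, 72.8 and 67.4 to 1.73, 2.04 and 2.05 FPKM (log2 difference -4.61, SE 0.15, adjusted p = 2.7e-09). Dendritic cell markers summed to 111 to 347 FPKM with vehicle and 189 to 392 FPKM with LPS + Dex, most of it Itgax in each library, with 7 of 10 genes below 1 FPKM, Cd209a at 0, and Batf3 higher by 1.94. Fibroblast markers, with Col1a2 the most abundant by mean with vehicle and Dcn with LPS + Dex, summed to 2.08 to 22.5 FPKM with vehicle and 3.91 to 14.3 FPKM with LPS + Dex, with Dcn and Pdgfrb higher by 1.68 and 1.10 and none lower (2 lower without vehicle replicate 2). The part of such cells in the results was not tested.

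Of 17 class II presentation and costimulation genes 9 fell and 5 rose (median -1.90). H2-Aa, the α chain of I-A, was at 425, 151 and 327 FPKM with vehicle and 30.0, 3.13 and 24.4 FPKM with LPS + Dex (log2 difference -4.22, SE 0.69, adjusted p = 0.00043). H2-Eb1, the β chain of I-E, fell from 204, 36.7 and 147 to 8.51, 0.963 and 7.66 FPKM (log2 difference -4.26, SE 0.71, adjusted p = 0.00047). Replicate 2 was the lowest of both groups for both genes, and the groups did not overlap. The I-E α pseudogene H2-Ea-ps fell by 6.30, and Cd83, a marker of mature antigen-presenting cells, fell from 15.4, 14.4 and 17.9 to 0.166, 0.127 and 0.163 FPKM (log2 difference -3.87, SE 0.20, adjusted p = 6.5e-08). Icosl, the ligand of the T cell costimulator ICOS, rose from 4.03, 4.86 and 3.62 to 93.6, 62.1 and 91.7 FPKM (log2 difference 3.997, SE 0.16, adjusted p = 1.2e-08). In the class I presentation list 3 of 20 genes were higher and 4 lower (4 and 2 with libraries centred), among them the chaperones Calr and Pdia3 (higher by 0.98 and 0.79), the proteasome activator Psme2 (0.90) and H2-T23 (lower by 0.90).

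Lipid handling moved in opposite directions by pathway. Of 24 sterol and fatty acid synthesis genes, 22 were called higher and none lower (median 1.59, and 24 of 24 with libraries centred). Scd2, a fatty acid desaturase, rose from 1.93, 1.08 and 2.62 to 77.5, 34.2 and 57.6 FPKM (log2 difference 4.28, SE 0.29, adjusted p = 5.2e-07), and Mvd, an enzyme of the mevalonate pathway, from 5.16, 5.74 and 5.74 to 94.99, 72.5 and 120.3 FPKM (log2 difference 3.86, SE 0.19, adjusted p = 4.5e-08). Fdft1, squalene synthase, rose by 2.72. Cholesterol efflux and lipoprotein genes went the other way, with 15 of 18 called lower and 2 higher (median -1.49). Apoe, apolipoprotein E, fell from 5673, 3762 and 4332 to 463, 441 and 1018 FPKM (log2 difference -2.93, SE 0.30, adjusted p = 1.3e-05), and Abca1, the main cholesterol exporter, from 98.6, 68.2 and 93.0 to 22.8, 10.48 and 9.11 FPKM (log2 difference -2.62, SE 0.32, adjusted p = 4.5e-05). Pltp, phospholipid transfer protein, fell by 3.16. In the fatty acid oxidation list 8 of 19 genes were lower and 1 higher, but 5 and 5 with libraries centred. Without LPS + Dex replicate 3, 3 were higher. Pparg, the fatty acid receptor that drives lipid uptake, fell from 37.3, 40.7 and 31.0 to 0.912, 0.698 and 0.598 FPKM (log2 difference -4.42, SE 0.15, adjusted p = 3.1e-09), Cpt1a, which admits fatty acids to mitochondria, fell by 1.60, and Ppargc1b rose by 2.27.

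Lysosomal genes were lower at 26 of 32 members and higher at 3 (median -1.11). Atp6v0d2, a subunit of the proton pump that acidifies lysosomes, fell from 207, 66.1 and 164 to 2.83, 0.895 and 1.32 FPKM (log2 difference -5.69, SE 0.38, adjusted p = 4.4e-07). Lipa, lysosomal acid lipase, which frees cholesterol from its esters, fell from 756, 576 and 723 to 37.2, 37.8 and 26.5 FPKM (log2 difference -4.31, SE 0.16, adjusted p = 5.4e-09), and Psap, the precursor of the saposins, from 4174, 4164 and 4449 to 549.7, 731 and 577 FPKM (log2 difference -2.79, SE 0.16, adjusted p = 1.6e-07). None of these overlapped between the groups, and Ctse fell by 3.88.

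Among 16 iron and heme genes, 4 were higher and 9 lower (median -0.70). Slc40a1, ferroportin, the sole exporter of iron from cells, fell from 172, 95.9 and 109.9 to 0.728, 0.108 and 0.404 FPKM (log2 difference -6.47, SE 0.27, adjusted p = 1.2e-08), and Cp, ceruloplasmin, the ferroxidase that works with it, rose from 10.98, 13.9 and 13.5 to 708, 515 and 523 FPKM (log2 difference 5.39, SE 0.19, adjusted p = 3.4e-09). Tfrc, the transferrin receptor, fell by 1.75, and Steap4, a metalloreductase, rose from near 0 by 2.16. Of 29 NRF2 and glutathione genes, 15 were lower and 6 higher (median -0.51). Prdx1, a peroxiredoxin, fell from 4532, 2804 and 4160.0 to 353, 399 and 531 FPKM (log2 difference -3.15, SE 0.21, adjusted p = 3.9e-07), whereas Sod2, the mitochondrial superoxide dismutase, rose from 20.3, 18.49 and 24.1 to 395, 397 and 388 FPKM (log2 difference 4.17, SE 0.13, adjusted p = 1.7e-09), and Slc7a11, the cystine importer, and Mgst2 by 4.05 and 2.83. Gstt3 was not called (log2 difference -0.15, SE 0.23, adjusted p = 0.63).

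Nuclear genes of the respiratory chain rose in most cases: 62 of 72 were called higher, none lower and 10 were not called, with a median difference of 0.81 and between 62 and 66 higher calls under the other 4 scalings. Cycs, cytochrome c, rose from 33.9, 29.4 and 37.7 to 139.9, 149.7 and 149 FPKM (log2 difference 2.09, SE 0.13, adjusted p = 3e-07), and Ndufc2, a complex I subunit, from 181, 196 and 168 to 577, 446 and 599 FPKM (log2 difference 1.56, SE 0.14, adjusted p = 5.5e-06). Cyc1 and Uqcrq of complex III and Ndufa12 of complex I rose by 1.54, 1.48 and 0.84, while Ndufa6 was not called (log2 difference 0.04, SE 0.17, adjusted p = 0.85). Of 12 genes encoded in mitochondrial DNA mt-Nd3, mt-Nd1 and mt-Nd2 were called, higher by 0.93, 0.89 and 0.52. Under the 4 other scalings 4 to 6 genes were called higher, and without LPS + Dex replicate 1 there were 6.

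In the TCA cycle list 14 of 20 genes were higher and 5 lower (2 lower with libraries centred or without vehicle replicate 2, and 3 without LPS + Dex replicate 3), with a median of 0.55. Idh3a, the catalytic subunit of the NAD-linked isocitrate dehydrogenase, rose from 10.3, 10.2 and 11.1 to 42.9, 37.3 and 29.0 FPKM (log2 difference 1.68, SE 0.14, adjusted p = 2.5e-06), and Mdh2, mitochondrial malate dehydrogenase, from 116, 132 and 122 to 256, 331 and 343 FPKM (log2 difference 1.31, SE 0.14, adjusted p = 2.2e-05). Sdhd, a membrane anchor of succinate dehydrogenase, rose from 95.4, 99.2 and 95.04 to 192, 206 and 175 FPKM (log2 difference 0.97, SE 0.13, adjusted p = 7.7e-05), and its partners Sdhc, Sdha and Sdhb by 0.54, 0.47 and 0.30, the last a call that was lost with the replicate number as a block and, like that of Sdha, without single libraries. Ogdh, Dld, Cs and Suclg1 rose by 1.00, 0.92, 0.74 and 0.67. Idh1, the cytosolic NADP-linked isocitrate dehydrogenase, fell from 278, 234 and 259 to 121, 94.9 and 78.8 FPKM (log2 difference -1.40, SE 0.16, adjusted p = 3e-05), and Suclg2, the GTP-specific partner of Suclg1, by 0.95. Acod1, which turns cis-aconitate into the antibacterial metabolite itaconate, rose from 1.43, 1.497 and 2.71 to 264, 143 and 395 FPKM (log2 difference 6.45, SE 0.32, adjusted p = 4.4e-08), with a mean of 1529 FPKM under LPS alone. In the list of itaconate and succinate handling 6 of 9 genes were higher and 1 lower (none lower with libraries centred). The dicarboxylate carriers Slc13a3 and Slc25a10 rose by 4.12 and 2.74 and had their highest means in LPS + Dex, at of 36.0 and 302 FPKM against 2.21 and 135 FPKM under LPS alone.

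Glycolytic genes were higher at 16 of 22 members and lower at 1 (median 0.80). Pfkfb3, which makes the allosteric activator of phosphofructokinase, rose from 27.7, 21.4 and 25.9 to 863, 561 and 389 FPKM (log2 difference 4.47, SE 0.23, adjusted p = 6.8e-08). Pfkl, Slc16a3 (a lactate exporter) and Hk2 rose by 2.46, 1.70 and 1.63. Of 19 genes listed as HIF1 and its targets, 9 were higher and 3 lower. Hif1a itself rose from 23.8, 20.2 and 23.2 to 78.1, 60.3 and 47.6 FPKM (log2 difference 1.40, SE 0.17, adjusted p = 3.7e-05), against a mean of 129 FPKM under LPS alone, and Ldha, lactate dehydrogenase A, from 619, 712 and 758 to 1519, 1621 and 1698 FPKM (log2 difference 1.21, SE 0.13, adjusted p = 2.2e-05). Ndrg1, a stress-responsive gene, fell from 55.5, 78.4 and 68.2 to 4.72, 11.4 and 5.42 FPKM (log2 difference -3.14, SE 0.28, adjusted p = 4.5e-06), and Epas1 (HIF2α) fell by 1.196.

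Plau, the urokinase-type plasminogen activator, fell by 4.33, and Mmp14, a membrane-bound collagenase, rose from 57.5, 27.0 and 51.6 to 582, 509.5 and 539.7 FPKM (log2 difference 3.62, SE 0.29, adjusted p = 1.6e-06), in a list of 17 metalloproteinases and inhibitors with 5 higher and 7 lower. Of 40 cell cycle genes 25 were lower and 4 higher (median -0.81). Ccnd1, cyclin D1, fell from 30.4, 46.3 and 43.7 to 2.26, 3.35 and 1.04 FPKM (log2 difference -3.72, SE 0.27, adjusted p = 7.8e-07), whereas Ccnd3, cyclin D3, rose from 33.9, 41.9 and 35.02 to 165, 164 and 128 FPKM (log2 difference 2.01, SE 0.14, adjusted p = 6.5e-07). The mitotic cyclins Ccnb2 and Ccna2 fell by 2.29 and 2.22. Of 46 ribosomal protein genes 20 were called lower and none higher, among them Rps28, Rps14 and Rpl32 with falls of 0.92, 0.84 and 0.78. Their median was -0.42. With libraries centred 1 was called lower, and Rps28, Rps14 and Rpl32 lost their calls. Rescaling without the 12 most abundant genes gave 12. Leaving out vehicle replicate 1 or replicate 2 gave 13, and Rps28 lost its call in either case.

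In the circadian clock list of 13 genes 6 were lower and 2 higher (5 and 3 with libraries centred), beside 33.5% and 16.0% of all genes. The list's median difference was -0.36, beside -0.223 for all genes. Dbp fell from 16.7, 27.1 and 24.2 to 0.440, 0.763 and 0.288 FPKM (log2 difference -3.97, SE 0.21, adjusted p = 7.5e-08), Nr1d2 (REV-ERBβ) from 19.6, 14.4 and 19.8 to 0.313, 0.223 and 0.220 FPKM (log2 difference -3.91, SE 0.15, adjusted p = 6.2e-09), and Tef by 2.94. Per3 had a difference of -2.16. Per1, a direct target of the glucocorticoid receptor, was among the higher (log2 difference 1.43, SE 0.16, adjusted p = 2.8e-05). Among 24 transcription factor genes of the glucocorticoid and C/EBP lists 7 were higher and 9 lower (10 and 9 with libraries centred). Batf, an AP-1 family factor, rose from 10.2, 12.8 and 10.01 to 140.5, 124 and 173 FPKM (log2 difference 3.61, SE 0.22, adjusted p = 2.5e-07), and Atf3, a stress-induced repressor, fell from 286, 188 and 256 to 19.5, 16.6 and 21.5 FPKM (log2 difference -3.58, SE 0.19, adjusted p = 8.5e-08). Bhlhe41, a repressor of the clock, fell by 2.36.

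**Figure D5:**
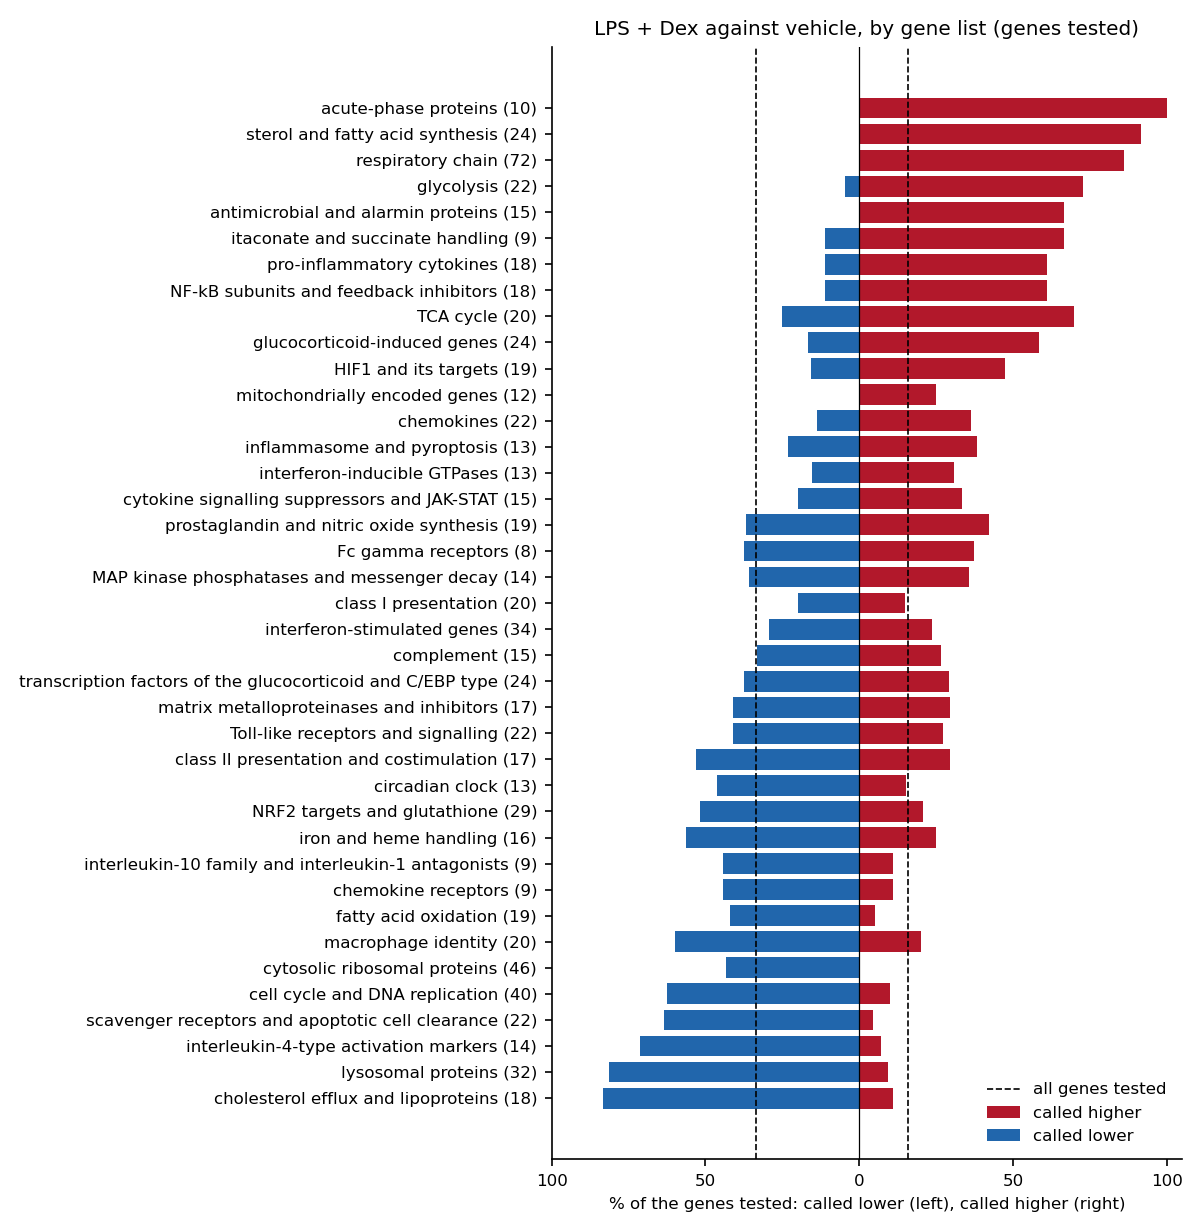
Percent of the genes tested in each list (number in brackets) that were called higher (red, right) or lower (blue, left) in LPS + Dex against vehicle; lists with at least 8 genes tested are shown and dashed lines give the share over all genes, 16.0% higher and 33.5% lower. Acute-phase, sterol synthesis and respiratory chain lists stand at the top and cholesterol efflux, lysosomal and interleukin-4-type lists at the bottom.

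The same comparison in the libraries labelled AMPKα1-/- shared no sample with the wild-type one. The levels of the targeted gene overlapped between the labels: Prkaa1, the gene of the α1 subunit of AMP-activated kinase, was at 15.9, 11.8 and 15.3 FPKM in wild-type vehicle libraries and 14.8, 16.5 and 15.4 FPKM in vehicle libraries labelled AMPKα1-/-, and at 20.5, 13.7 and 8.59 and 12.5, 12.9 and 9.65 FPKM in the respective LPS + Dex libraries. Gene-level FPKM does not show whether an exon is missing. In those libraries 6538 of 11226 genes were called (58.2%), 1923 higher (17.1%) and 4615 lower (41.1%). With libraries centred the calls there split nearly evenly, 3061 higher and 2958 lower. Of the 5669 wild-type calls 5557 were tested there, 5535 had the same sign, 5023 were also called in that direction (90.4%) and none was called in the opposite one. All 15 of the largest rises and 14 of the 15 largest falls were called in the same direction. H2-Ea-ps was the exception, at -4.57 with an adjusted p of 0.073 in the libraries labelled AMPKα1-/-, where it was at 414, 503 and 0 FPKM with vehicle and 2.70, 3.25 and 0 FPKM with LPS + Dex. Replicate 3 was thus listed at 0 on both sides, and replicates 1 and 2 were lower with LPS + Dex. Whether the mice differed at this gene was not tested. Lcn2, Hp and Saa3 differed by 12.29, 11.04 and 10.503 there, and Mrc1 and Trem2 by -6.64 and -6.12.

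The difference between the 2 genotype labels in their response to LPS + Dex was tested as an interaction term in a fit of 23 libraries of both labels. It was called for 5 of 11356 genes (0.0440%), while 430 (3.79%) had an unadjusted p under 0.05. That share is smaller than the one this threshold passes on average when no gene differs. Cd300ld, a myeloid receptor of the CD300 family, fell less in wild-type libraries, from 29.8, 35.2 and 40.7 to 3.76, 3.53 and 3.22 FPKM, than in libraries labelled AMPKα1-/-, from 57.0, 71.7 and 68.2 to 1.83, 1.77 and 1.39 FPKM (difference of differences 1.64, SE 0.25, adjusted p = 0.016). Cryaa, a small heat shock protein of the lens, was listed at 0 in every vehicle library of both labels and reached 14.3, 13.5 and 25.9 FPKM in wild-type and 5.44, 5.09 and 5.57 FPKM in LPS + Dex libraries labelled AMPKα1-/- (1.51, SE 0.26, adjusted p = 0.034). With libraries centred Cryaa was not called in the interaction test (1.45, adjusted p = 0.286).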

How the data were processed

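RNA of mouse BMDMs had been sequenced with 1 library per sample, and the authors deposited 1 table of FPKM values per library, named by Ensembl gene. The submitters' processing notes name Bowtie2 2.2.3, TopHat2 2.0.12, HTSeq 0.6.1, DESeq2 and the mouse build GRCm38 (mm10), without saying which step each served. Whether counting used strand is not given in the sources used here. FPKM divides by gene length and library total, so genes that take a large share can lower the values of the others. Symbols came from GENCODE mouse release 21 (46488 of 47069 genes). The FPKM steps gave whole fragments for only 55.4% to 63.4% of values within 0.001, so no count test was run, and the recovered depths are approximate.

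For each gene with a mean of at least 1 FPKM, limma 3.58.1 in R 4.3.3 was fitted to log2(FPKM + 1), with a trended prior and Benjamini-Hochberg adjustment over all genes tested. The fit held 11 wild-type libraries in 4 groups without covariates, and no program for the differential test is named in the study's methods. Libraries labelled AMPKα1-/- (12) were fitted alike, and the interaction used all 23 in 8 groups. Replicates with the same number deviated together in the libraries labelled AMPKα1-/- (r = 0.253, 0.331 and 0.367 between LPS + Dex and vehicle), where a block left the count of calls within 1.5 times. The text names the 15 largest rises and 15 largest falls whose groups did not overlap, the 12 most abundant genes, up to 4 called genes per list, members of 7 lists on cytokines, chemokines, interferon-stimulated genes, glucocorticoid-induced genes, prostaglandin and nitric oxide synthesis, TCA cycle and HIF1, genes the study discusses, and interaction genes. The gene lists, and the comparison itself, were chosen with earlier results of these data known. Scripts were tested on simulated data. Alternatives changed the pseudocount, the filter, the scaling, the model and the libraries. DAMPs libraries were not used here, and some genes that the naming rule would give are not reported here. The planned permutation test of single genes' shares of the FPKM sum is not given, since these genes were chosen for their abundance under LPS + Dex.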

Additional observations from a re-analysis of the deposited data

Results flagged for a closer look

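In 5 genes the response to LPS + Dex differed between wild-type libraries and libraries labelled AMPKα1-/- by the limma interaction test. Beside them, 430 of 11356 genes (3.79%) had an unadjusted p under 0.05, a smaller share than this threshold passes on average when no gene differs. Since Prkaa1 levels overlapped between the labels, within vehicle and within LPS + Dex, the difference is one between labels. BC018473 rose less in wild-type libraries (5.56 against 7.09, difference -1.524, SE 0.23, adjusted p = 0.016), and lies antisense to another gene, which makes its level uncertain where strand is unknown. Cd300ld fell less in wild-type libraries (-3.00 against -4.64, difference 1.643, SE 0.25, adjusted p = 0.016). Gm14461 fell more in wild-type libraries (-3.60 against -2.05, difference -1.546, SE 0.27, adjusted p = 0.034), from a mean of 13.3 FPKM with vehicle against 3.79 FPKM. With LPS + Dex its means were near 0 under both labels (0.140 and 0.151 FPKM), so its difference restates the gap between the vehicle levels. Cryaa rose more in wild-type libraries (4.18 against 2.67, difference 1.512, SE 0.26, adjusted p = 0.034), a call it lost with libraries centred (1.45, adjusted p = 0.286). Gm11735 rose less in them (means of 1.59 and 5.67 FPKM with LPS + Dex, difference -1.362, SE 0.22, adjusted p = 0.028) and did not pass the filter of the wild-type fit. Gm14461 and Gm11735 are known only by gene model names. Cd300ld, Gm11735 and BC018473 all lie on chromosome 11, starting at 114982274, 116739062 and 116752167, while Prkaa1 lies on chromosome 15. Their differences may thus not be separate observations, and whether the mice of the 2 labels differed at this stretch was not tested.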

How the results depend on the processing

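Counts of called genes stayed within 1.5 times under all alternatives in wild-type libraries, and no gene called in both changed direction. Beside 5669 calls in the fit as reported, the replicate number as a block gave 5743 (5514 of them shared), the 6 libraries only 4821 (4792 shared), no moderation 3899 (3782 shared) and no filter 6012 (4925 shared). Membership moved more than the counts under the scalings. Centring gave 5322 calls (4462 shared) and quantile normalization 5470 (4587 shared). Rescaling gave 5139 without the 12 most abundant genes (4605 shared) and 5211 without Saa3 (5104 shared). Leaving out 1 library gave 4623 (without vehicle replicate 1) to 6120 (without LPS + Dex replicate 1) calls. With libraries centred, the libraries labelled AMPKα1-/- had 3061 higher and 2958 lower calls, and 1 gene with a higher and 4 with a lower wild-type response passed the interaction test: Cryaa lost its call (adjusted p = 0.286), and St6galnac1 gained one (-1.31, adjusted p = 0.0239). The block gave 6580 calls in libraries labelled AMPKα1-/- and 6 for the interaction, the 5 genes called without it and Arl4c (0.85, adjusted p = 0.0225). In wild-type libraries the numbers were not taken to pair the samples, since deviations of libraries with the same number correlated at 0.276, 0.351 and -0.247, and LPS + Dex replicates 1 and 3 correlated best with vehicle replicates 3 and 2.

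Of the 221 named genes, 5 lost their call with libraries centred (Csf1r, Ninj1 and 3 ribosomal genes), 3 after quantile normalization, and 25 without moderation. Sdhb lost it with the replicate number as a block. Calls of Mertk, Sdha, Sdhb, Ccl22, Rps28, Csf1r and mt-Nd2 were lost without single libraries, and Nr3c1 was called lower without LPS + Dex replicate 1 (-0.70), Cxcl10 without LPS + Dex replicate 3 (-0.67). The cause was not tested.

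The sign turned for 9 named genes, none of them called in the fit as reported. Centring gave Gstt3 0.0781, Prkaa1 0.151 and Spi1 0.221. Quantile normalization gave Cd163 0.0127, Cxcl10 6.668e-06, Gstt3 0.148, Lyz2 -1.396, Prkaa1 0.162 and Spi1 0.153. Rescaling without Saa3 gave Spi1 0.0485, and without the 12 most abundant genes Prkaa1 0.0862 and Spi1 0.168. Over the fits that left out 1 library, the difference ranged from -0.559 to 0.106 for Cd163, -0.666 to 0.0502 for Cxcl10, -0.348 to 0.0332 for Gstt3, -0.357 to 0.399 for Irf7, -0.235 to 0.491 for Klf9, -0.0797 to 0.190 for Ndufa6, -0.359 to 0.224 for Prkaa1 and -0.0786 to 0.0903 for Spi1.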
